A study of Mus musculus with 38 samples.

Results

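The 44 genes described here encode the machinery that stores transmitter in synaptic vesicles and fuses those vesicles, and other intracellular vesicles, with their target membranes. They were chosen by name: every gene whose platform symbol belongs to the syntaxins and their binding partners (Stx, Stxbp), the SNAP, VAMP, SV2, complexin and numbered synaptotagmin families, the synapsins Syn1 to Syn3, synaptophysin (Syp), or the disassembly factors Nsf, Napa and Napb, with a detection p-value under 0.01 in at least 8 arrays. Every gene with such a name passed that filter, so the 44 are all those named by the annotation used here, out of 9476 features measured (8449 named genes and 1027 unnamed probes). Of the 61 probes with these names 60 passed, and the probe left out, of Snap91, was detected in 6 arrays. Of the genes, 37 were detected in each of the 38 arrays, and the gene closest to the limit, Vamp5, was detected in 14. Where a gene had several probes, as 12 did, the brightest stood for it. Snap25, Syn3, Sv2c, Syt2 and Syt7 are not analysed here.

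Vesicle fusion is driven by SNARE proteins, which zip together across the gap between a vesicle and its target. A vesicle SNARE such as synaptobrevin (Vamp2) pairs with a syntaxin and a SNAP protein on the target membrane. At nerve terminals synaptotagmins sense calcium, complexins hold the assembled complex ready, and the ATPase Nsf with its adaptors Napa and Napb takes spent complexes apart. Synapsins tether vesicles in reserve behind the release site, and the related SNAREs of endosomes and the Golgi run the everyday traffic of every cell.

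The striatum of adult MF1 mice aged 152 days was profiled on Illumina bead arrays in XX females and in males with XX, XY or XXY sex chromosomes, and the series asks whether XXY males, a model of Klinefelter syndrome, are feminized in this tissue. The sample codes of all 3 male groups contain Sry, the testis-determining gene, and those of the XX females do not. The labels do not say where that Sry lies. Signals were available for 9 XX females, 8 XX males, 9 XXY males and 11 XY males, and each label calls its sample a biological replicate. Each code also carries an a, a b or both, letters whose meaning is not stated: all XX females carried b, all XX males carried a, and XY and XXY males held a, b and both. The striatal markers Ppp1r1b (DARPP-32), Drd1 and Drd2 (dopamine receptors), Tac1 and Rgs9 were detected in each of the 38 arrays. So were markers of other regions: Ttr of choroid plexus (mean log2 signal 13.51), Slc17a6 of the thalamic and septal list (11.24) and Slc17a7 of cortical neurons (8.87). The choroid plexus list averaged 9.12 in XY males, 8.23 in XXY males, 9.23 in XX males and 8.37 in XX females. The part of the dissection in the members' values was not tested.

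Values below are log2 of background-corrected, quantile-normalized signal intensity, and differences come from a limma fit of the 4 groups that also holds a term for the labelled batch and one for the letter. A gene changed where its Benjamini-Hochberg adjusted p over all 9476 features was under 0.05. Probes per array with a detection p-value under 0.01 numbered 10089 to 12392, and the 90th percentile of the raw signal was 632 to 937 on the 14 letter a arrays against 1266 to 2209 on the 14 letter b arrays. As a check of the groups, Eif2s3x, an X-linked gene known to escape X inactivation, was higher than in XY males in XXY males by 0.58, in XX females by 0.70 and in XX males by 0.64 (adjusted p 5.16e-05, 0.000181 and 0.000645). Animals XX female 7 and XXY male 5 stood apart over the whole array, as described below, and counts of members that moved by more than 1.5 times when they were left out are given both ways. In bulk tissue, fewer cells of a type and less RNA per cell cannot be told apart.

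Of the members, 3 are X-linked: Syn1, which encodes synapsin I, Syp, which encodes the vesicle membrane protein synaptophysin, and Vamp7, which encodes a SNARE of late endosomes and neurite outgrowth. The RefSeq promoters of Syn1 and Syp (mouse build GRCm38.p6, 250 bases before to 50 after the start) are shown because these genes lie on the chromosome that differs between the groups and their signals moved together from animal to animal. That of Snap23, a widely expressed target SNARE whose signal ran the other way, is shown beside them. The Syn1 window is chrX:20920869-20921168 on the minus strand, with a GC content of 68.3%. The Syp window is chrX:7638330-7638629 on the plus strand (59% GC), and the Snap23 window is chr2:120567421-120567720 on the plus strand (60.3% GC). Capitals mark matches to 3 motifs searched on both strands.
Syn1: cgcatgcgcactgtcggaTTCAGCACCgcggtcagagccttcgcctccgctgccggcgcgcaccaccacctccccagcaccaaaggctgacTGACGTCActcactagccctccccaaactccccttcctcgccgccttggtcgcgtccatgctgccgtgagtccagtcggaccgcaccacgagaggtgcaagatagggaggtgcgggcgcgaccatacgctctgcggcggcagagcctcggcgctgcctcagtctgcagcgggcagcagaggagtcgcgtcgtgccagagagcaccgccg
Syp: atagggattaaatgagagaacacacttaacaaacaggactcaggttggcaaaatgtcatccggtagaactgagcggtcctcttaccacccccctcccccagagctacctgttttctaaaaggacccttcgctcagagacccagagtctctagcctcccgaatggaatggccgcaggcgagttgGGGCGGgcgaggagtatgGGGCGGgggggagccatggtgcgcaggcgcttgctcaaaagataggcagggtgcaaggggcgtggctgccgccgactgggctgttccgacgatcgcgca
Snap23: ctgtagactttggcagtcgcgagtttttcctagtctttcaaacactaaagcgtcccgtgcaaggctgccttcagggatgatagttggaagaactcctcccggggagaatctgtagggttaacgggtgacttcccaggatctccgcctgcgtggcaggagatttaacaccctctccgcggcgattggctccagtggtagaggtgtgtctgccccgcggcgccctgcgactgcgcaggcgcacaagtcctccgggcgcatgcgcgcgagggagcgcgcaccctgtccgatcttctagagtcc
In Syn1 the capitals are the left part of the RE1 element bound by the neuronal repressor REST (TTCAGCACC, bases 19 to 27 of the window) and a cAMP response element (TGACGTCA, bases 92 to 99). In Syp they are GC boxes (GGGCGG, bases 184 to 189 and 202 to 207), and Snap23 had no match to any of these letters. The RE1 letters occurred in 0.371% of the 32851 RefSeq mouse promoter windows, the cAMP response element in 1.79% and the GC box in 35.7%. Among 47 windows of the 37 member genes found in the RefSeq table, 1 held the RE1 letters, 2 the cAMP response element and 30 a GC box. These matches describe letters in a window, not occupied sites.

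The first question was whether the X-linked members followed the number of X chromosomes. Syn1 ranged from 11.12 to 13.12 in XY males (median 12.36), from 10.35 to 12.84 in XXY males (median 12.37), from 11.24 to 12.72 in XX males (median 12.34) and from 10.53 to 12.93 in XX females (median 12.48). The groups overlapped over nearly their whole ranges, and the lowest values belonged to the 2 animals that stood apart. Against XY males Syn1 differed by -0.06 in XXY males (95% interval -0.61 to 0.48), by -0.41 in XX females (-1.13 to 0.30) and by 0.39 in XX males (-0.30 to 1.07). Without those 2 animals the differences were 0.16, -0.18 and 0.39, so the XXY difference turned its sign, and none had an adjusted p under 0.05. The XX female difference was 0.93 within labelled batch 1 alone (standard error 0.86) and -0.79 within batch 2 alone. No male of batch 1 carried letter b alone, so its XX female values extend the letter term beyond the males' letters.

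Syp ranged from 13.21 to 13.79 in XY males (median 13.56), from 12.95 to 13.85 in XXY males (median 13.52), from 13.25 to 13.83 in XX males (median 13.64) and from 12.75 to 13.69 in XX females (median 13.35). XX females had the lowest median, but their values overlapped those of each other group. The differences from XY males were 0.02 in XXY males (95% interval -0.20 to 0.25), -0.29 in XX females (-0.58 to -0.00031) and 0.14 in XX males (-0.14 to 0.42). Within labelled batch 1 alone, with the same limit as for Syn1, the XX female difference was 0.36 (standard error 0.37). Within batch 2 alone it was -0.52. The upper bound in XXY males, 0.25, lay below the lower bound of the Eif2s3x difference in the same comparison, 0.42. For Vamp7 the medians were 9.90 in XY males, 9.92 in XXY males, 9.96 in XX males and 9.86 in XX females, with ranges of 9.35 to 10.60, 9.37 to 11.14, 9.70 to 10.81 and 9.50 to 11.13. Its differences from XY males were -0.07 in XXY males (95% interval -0.49 to 0.36), 0.30 in XX females (-0.26 to 0.86) and -0.17 in XX males (-0.71 to 0.37). No X-linked member passed the test in a comparison with XY males when all arrays had equal weight. With arrays weighted by their residual spread, Syn1 passed in XX males, at 0.64 over all groups (adjusted p 0.0338) and 0.93 within letter a (adjusted p 0.0139). Those weighted fits called 25.9% and 32.8% of all features. Syp passed in XX females within letter b, at -0.36 (adjusted p 0.0498), where 2.09% of all features were called.

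**Figure D1:**
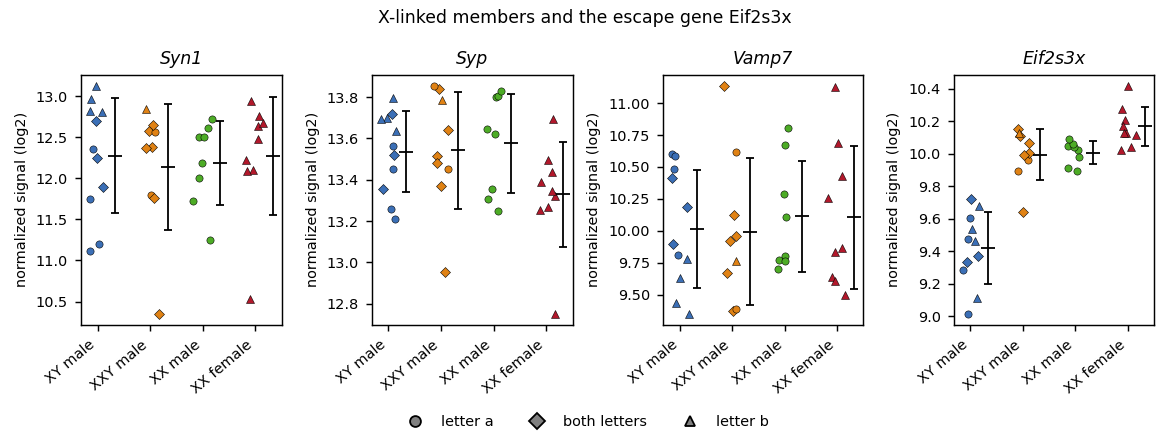
Normalized signal (log2, vertical axis) of Syn1, Syp, Vamp7 and, for reference, Eif2s3x in each animal by group, with the marker shape giving the letters of the sample code; the black bars are the group mean and SD. The 3 members overlap between all groups, whereas nearly all Eif2s3x values of the groups with a second X lie above those of XY males.

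The comparison of XXY with XY males sets males with an added X chromosome against males without it, and no vesicle or SNARE gene passed the test. None of the 44 members had an adjusted p under 0.05 (limma, lowest adjusted p 1.00), and 0 had an unadjusted p under 0.05. Over all features 0.0633% were called after adjustment and 1.3% at the unadjusted level. Without XXY male 5, 1 member had an unadjusted p under 0.05, against 2.02% of all features. The median difference over the members was -0.01, against -0.0011 over all features. Of the members 21 lay above 0 and 23 below, and of all features 4686 and 4790. Single differences ran from -0.33 to 0.30, and the median half-width of the 95% intervals was 0.29.

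The lowest and highest moderated t in this comparison belonged to 6 genes whose groups overlapped widely. Syt9, a calcium sensor of dense-core and some synaptic vesicles, ranged from 7.48 to 8.69 in XXY males (median 7.77) against 7.21 to 9.22 in XY males (median 8.46), a difference of -0.31 (95% interval -0.75 to 0.13). Vamp1, the synaptobrevin of fast motor and sensory synapses, differed by -0.33 (-0.86 to 0.21), and Stx3, a syntaxin of ribbon synapses and dendrites detected in 26 of the 38 arrays, by -0.20 (-0.52 to 0.12). At the other end stood Syt12, a synaptotagmin that does not bind calcium, at 0.19 (-0.07 to 0.45). Syt6, detected in 26 arrays, followed at 0.28 (-0.26 to 0.81), and Snap91, the clathrin adaptor AP180 that retrieves vesicle membrane, at 0.30 (-0.30 to 0.90). All of these intervals include 0.

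Within the core release machinery the XXY and XY medians lay close together, gene by gene. Syt1, the fast calcium sensor, had a median of 11.44 in XXY males (9.85 to 11.62) and 11.41 in XY males (10.30 to 12.00). Vamp2, the main vesicle SNARE of the forebrain, had medians of 12.85 (11.57 to 13.20) and 12.84 (12.37 to 13.02). Stx1a, the plasma membrane syntaxin of the terminal, had medians of 10.46 (9.57 to 11.16) and 10.55 (9.97 to 11.32). The groups overlapped for each gene, and the lowest XXY values of Syt1, Vamp2 and Stx1a all came from XXY male 5. The clamp proteins Cplx1 and Cplx2 differed by -0.08 (95% interval -0.48 to 0.32) and -0.07 (-0.76 to 0.63), and the disassembly ATPase Nsf by 0.03 (-0.41 to 0.47). Syn2, the second synapsin, differed by 0.04 (-0.29 to 0.36). Sv2a, the vesicle protein that binds the drug levetiracetam, differed by -0.12 (-0.62 to 0.39), and its relative Sv2b by 0.08 (-0.19 to 0.36). Of the remaining members, Napb, the brain form of the Nsf adaptor, differed by 0.01, Vamp4 of the trans-Golgi by 0.04, Syt5 by 0.10 and Vamp8, a SNARE of secretory granules and endosomes, by -0.21, with intervals that include 0.

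**Figure D2:**
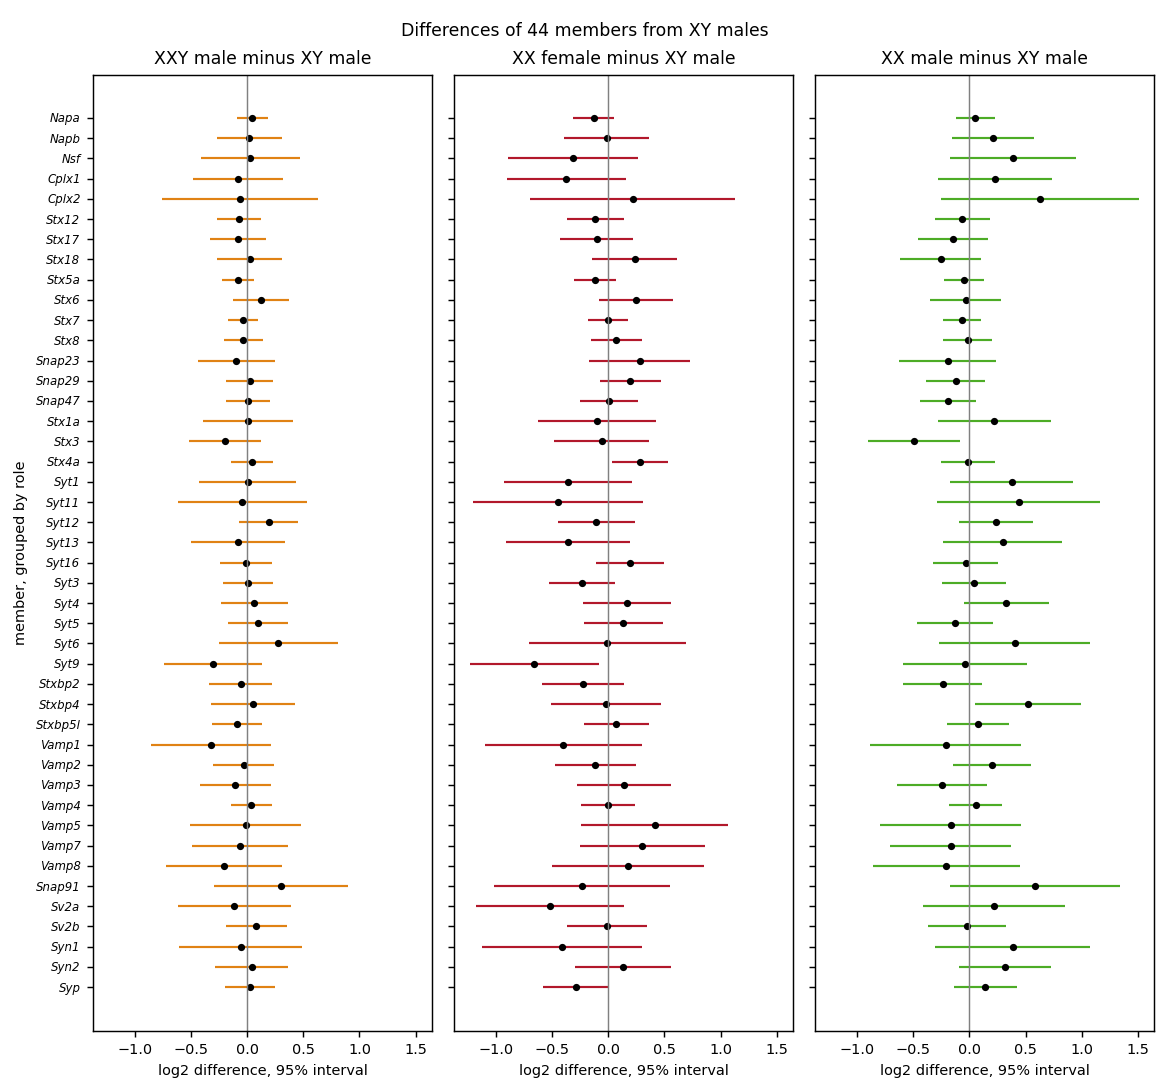
Log2 difference (black point) and 95% interval (line) of each of the 44 members from XY males, in XXY males, XX females and XX males, with the members grouped by role. The intervals are shortest for XXY males, and the few that leave out 0 belong to XX females (Syt9, Syp, Stx4a) and XX males (Stx3, Stxbp4), none of which passed the test after adjustment.

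XX females and XY males differ in sex chromosomes and in the presence of Sry in the sample code, and again no member changed between them (limma, lowest adjusted p 0.891, with 0.0528% of all features called). At an unadjusted p under 0.05 there were 3 of the 44 members, against 5.26% of all features. They were 1 higher and 2 lower, and 2.25% of features were higher and 3.01% lower. Without XXY male 5 they numbered 5, against 9.18%, and without XX female 7 they numbered 2, against 3.48%. Syt9 ranged from 7.37 to 8.92 in XX females (median 7.72) and from 7.21 to 9.22 in XY males (median 8.46), a difference of -0.66 (95% interval -1.24 to -0.08, unadjusted p 0.0258). Stx4a, a plasma membrane syntaxin of glucose transporter traffic in fat and muscle, ranged from 8.28 to 8.70 (median 8.52) against 8.06 to 8.57 (median 8.27), a difference of 0.28 (0.03 to 0.53, unadjusted p 0.0289). Syp, described above, had an unadjusted p of 0.0498. All 3 overlapped between the groups. Within labelled batches 1 and 2 alone, Syt9 differed by -0.27 and -0.82, and Stx4a by 0.12 and 0.26. The batch 1 values again extend the letter term beyond the letters of the males in that batch. Of the other members with the most extreme moderated t, Syt3, detected in 28 arrays, differed by -0.23 (-0.53 to 0.06), Stx6, a syntaxin of the trans-Golgi, by 0.25 (-0.08 to 0.58) and Snap29, a SNARE of autophagy, by 0.20 (-0.08 to 0.47). The members' median difference was -0.02 and that of all features -0.01. Of the members 17 lay above 0 and 27 below, and of all features 4587 and 4889.

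Comparing only animals with letter b alone, 9 XX females and 4 XY males, needs no covariate for the letter. In that separate fit no member changed either (lowest adjusted p 0.368, with 0.0528% of all features called), while 8 members had an unadjusted p under 0.05, 2 higher and 6 lower, against 13.1% of all features (5.83% higher and 7.23% lower). Syp differed by -0.38 (95% interval -0.67 to -0.08), and Syt11, an abundant synaptotagmin that does not bind calcium, had -0.80 (-1.46 to -0.15). Sv2a had -0.80 (-1.46 to -0.14). The median over members was -0.11 against -0.02 over all features. In XY males every animal with letter b alone belonged to labelled batch 2, while XX females came from both batches, and the effect of batch on this comparison was not tested. When arrays were weighted by their residual spread, Sv2a, Syp and Syt11 passed the threshold and were lower (3 members, 2.09% of all features). The directions of all features called in that weighted fit were not counted.

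XX males and XY males share the male label and differ in the Y chromosome and the second X. No member changed (limma, lowest adjusted p 0.635, with 0.0528% of all features called), and 2 members had an unadjusted p under 0.05 against 6.51% of all features (6 members and 13.3% without both animals that stood apart, 5 and 12.2% without XXY male 5 alone). Stx3 ranged from 5.24 to 6.21 in XX males (median 5.46) and from 5.66 to 6.46 in XY males (median 6.26), a difference of -0.50 (95% interval -0.90 to -0.09). Stxbp4, a syntaxin 4 binding protein first studied in insulin-regulated traffic, ranged from 7.15 to 8.15 (median 7.71) against 6.32 to 7.85 (median 7.11), a difference of 0.52 (0.05 to 0.99). XX males thus lay towards the low end for Stx3 and the high end for Stxbp4, with overlap in both. Next in order were Syt4, a synaptotagmin of dense-core vesicles, at 0.33 (-0.05 to 0.71) and Snap91 at 0.58 (-0.17 to 1.34), and on the low side Snap47, a SNAP relative found on intracellular membranes, at -0.19 (-0.44 to 0.06), with Stx18, a SNARE of the endoplasmic reticulum, at -0.26 (-0.62 to 0.11). The median was 0.02 over members and 0.01 over all features. Of the members 22 lay on each side of 0, and of all features 4815 lay above and 4661 below.

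Among animals with letter a alone, 8 XX males and 4 XY males, the separate fit again called no member (lowest adjusted p 0.433, with 0.0317% of all features called). There 9 members had an unadjusted p under 0.05, 7 higher and 2 lower, against 11.1% of all features (6.5% higher and 4.58% lower). The highest moderated t belonged to Syt13, a synaptotagmin that does not bind calcium (0.34, 95% interval 0.03 to 0.64), Syt1 (0.55, 0.05 to 1.05) and Cplx2 (0.84, 0.06 to 1.61), and the lowest to Stx3 (-0.53, -0.93 to -0.13) and Stxbp2, a syntaxin partner of secretory cells (-0.35, -0.64 to -0.05). The median over members was 0.08, against 0.01 over all features. All 4 of these XY males belonged to labelled batch 1 while the XX males came from both batches, and the effect of batch on this comparison was not tested.

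With array weights the XX male comparison gave other counts. The fit over all groups then called 13 members, 11 higher and 2 lower in XX than in XY males, where 25.9% of all features were called, and the fit within letter a called 16, 12 higher and 4 lower, where 32.8% of all features were called. Both fits counted Nsf, Snap91, Syn1, Syt1, Syt4, Syt11, Syt12, Vamp2, Cplx2 and Stxbp4 as higher and Stx3 and Vamp3, the cellubrevin of recycling endosomes, as lower. For Syn1 the weighted difference over all groups was 0.64 (adjusted p 0.0338), for Vamp2 0.35 (0.0229) and for Nsf 0.63 (0.0154). The members' share lies near that of all features. The directions of all features called in these weighted fits were not counted. Without both animals that stood apart, and with equal weights, 0 members were called in XX against XY males.

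XXY males were also set against the 2 groups with the same number of X chromosomes. Against XX females no member changed (lowest adjusted p 0.924, with 0.0422% of all features called). Only Syp had an unadjusted p under 0.05, as against 4.08% of all features, at 0.32 (95% interval 0.01 to 0.62). That count depended on the animals fitted. Without XXY male 5 it was 11 members, against 15.8% of all features, and without XX female 7 it was 1, against 2.56%. Without both it was 4, against 5.38%, and with array weights 15, against 23.1%. Napa, the alpha-SNAP adaptor of Nsf, differed by 0.18 (-0.01 to 0.37), Syt12 by 0.30 (-0.06 to 0.66), Stx4a by -0.24 (-0.50 to 0.02), Snap23 by -0.38 (-0.85 to 0.09) and Syt16, a synaptotagmin relative that does not bind calcium, by -0.21 (-0.52 to 0.11). The members' median was 0.04, against 0.01 over all features. Of the members 26 lay above 0 and 18 below, and of all features 4962 and 4514.

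Against XX males no member changed (lowest adjusted p 0.688, with 0.0211% of all features called), and 0 members had an unadjusted p under 0.05, against 6.25% of all features (1 member and 6.03% without XX female 7). Stxbp4 came closest at -0.47 (95% interval -0.95 to 0.01), followed by Cplx2 at -0.70 (-1.59 to 0.19), Syt13 at -0.38 (-0.92 to 0.16), Snap47 at 0.20 (-0.05 to 0.45), Stx18 at 0.28 (-0.09 to 0.64) and Stx3 at 0.30 (-0.12 to 0.71). The members' median was -0.03, against -0.0040 over all features. Of the members 16 lay above 0 and 28 below, and of all features 4691 and 4785. Without the letter term 1 member, Stxbp5l, was called at -0.67 (adjusted p 0.0434), where 1.75% of all features were called. These comparisons share their XXY animals, as the 3 above share their XY animals, so their values are not independent of each other.

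XX males and XX females carry the same X chromosomes and differ in Sry, but also in the letter of every sample code. With the letter term the fit called no member (limma, lowest adjusted p 0.561, with 0.0106% of all features called), and 1 member, Syp, had an unadjusted p under 0.05, against 7.61% of all features. Syp was at 0.43 (95% interval 0.01 to 0.86), Syt1 at 0.74 (-0.09 to 1.56), Nsf at 0.71 (-0.14 to 1.55), Stx18 at -0.49 (-1.04 to 0.06), Stx4a at -0.29 (-0.65 to 0.07) and Snap29 at -0.32 (-0.72 to 0.08). Without XXY male 5 the count was 11, against 18.8% of all features, and without XX female 7 it was 0, against 3.03%. Without both animals it was 4, against 7.24%. The median half-width of the intervals, 0.56, was the widest of the 6 comparisons. With array weights 12 members were called, 9 higher and 3 lower, where 20.7% of all features were called in directions that were not counted.

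Without the letter term 6 members passed in that comparison, where 26.9% of all features were called. Stxbp5l, which encodes tomosyn-2, a decoy SNARE that restrains release, ranged from 7.30 to 8.13 in XX males (median 7.57) and from 6.16 to 6.62 in XX females (median 6.46). Snap47 ranged from 10.24 to 10.73 (median 10.50) against 9.31 to 10.18 (median 10.02). These ranges did not overlap for either gene. The fitted differences without the term were 1.15 for Stxbp5l (adjusted p 1.71e-05), 0.53 for Snap47 (0.0032), 0.61 for Stxbp4 (0.0181), -0.61 for Stx3 (0.0076), -0.51 for Sv2b (0.0137) and -0.30 for Napa (0.0156). With the letter term the same genes stood at 0.0049, -0.19, 0.54, -0.44, -0.0058 and 0.19, so Snap47 and Napa turned their sign.

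**Figure D3:**
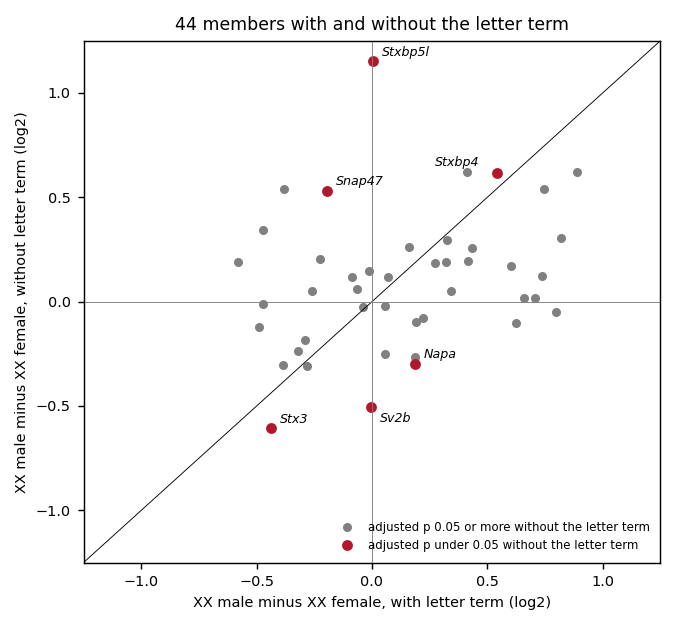
Log2 difference of XX males minus XX females for each of the 44 members, fitted with (horizontal axis) and without (vertical axis) the term for the letter of the sample code; red points had an adjusted p under 0.05 without the term and the line marks equal values. Stxbp5l falls from 1.15 to 0.0049, whereas Stxbp4 and Stx3 lie near the line.

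The letter term itself, which rests on XY and XXY males, the groups that hold different letters, had 4 members past the threshold, against 13.2% of all features called. They were 1 higher and 3 lower in letter b, and over all features 662 were higher and 586 lower. Stxbp5l ranged from 7.35 to 7.71 in the 4 XY males with letter a, from 6.87 to 6.93 in the 3 with both letters and from 6.24 to 6.38 in the 4 with letter b. Among XXY males it was 7.28 to 7.83 in the 2 with letter a, 6.49 to 7.38 in the 6 with both, and 6.58 in the 1 with letter b. Its coefficient was -1.17 (95% interval -1.53 to -0.82, adjusted p 5.41e-05), and letter a and letter b animals did not overlap within XY males or over all groups. Snap47 ranged from 10.56 to 10.78 in letter a XY males and from 9.68 to 10.03 in letter b XY males, with a coefficient of -0.74 (adjusted p 0.0018). Snap23 ranged from 8.20 to 9.20 against 7.69 to 8.00, with a coefficient of -0.84 (adjusted p 0.0359), and Napa from 9.55 to 9.75 against 10.00 to 10.47, with a coefficient of 0.49 (adjusted p 0.0030). None of the 4 was called within labelled batch 1 or batch 2 alone, and Snap23 was not called without the detection filter. Leaving out XXY male 5 raised the count to 8 members, against 21.7% of all features. Of 3 Napa probes fitted by themselves 1 was called, and their coefficients ran from -0.19 to 0.49. In XY and XXY males with 1 letter alone, letter and labelled batch cannot be told apart. In these groups only the animals with both letters came from both batches. The labelled batch term called 0 members and 0 features, with 0 members and 1.68% of features at an unadjusted p under 0.05.

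By role, the groups of genes gave no call in any of the 6 comparisons. Of the 6 vesicle phosphoproteins and membrane proteins (Syn1, Syn2, Syp, Sv2a, Sv2b and the adaptor gene Snap91), the median difference from XY males was -0.26 in XX females, 0.27 in XX males and 0.03 in XXY males. The 10 synaptotagmins had medians of -0.17 in XX females, 0.27 in XX males and 0.01 in XXY males. The 7 vesicle SNAREs had medians of 0.14, -0.17 and -0.07 in the same order. The 7 endosomal and Golgi syntaxins had medians of -0.0044, -0.06 and -0.04, and their residual SDs ran from 0.123 for Stx7, a late endosomal syntaxin, to 0.317 for Stx18. Among the remaining syntaxins, Stx5a of the Golgi, Stx8 and Stx12 of endosomes and Stx17, the autophagosome syntaxin, differed from XY males by between -0.15 (Stx17 in XX males) and 0.07 (Stx8 in XX females). All XX females carried b and all XX males a, so their medians by role depend on the letter term. Without that term Syn1 turned its sign in both, to 0.047 in XX females and -0.0038 in XX males. Fits within a single letter, which held no batch term, gave synaptotagmin medians of -0.25 in XX females and 0.31 in XX males. Over all features the medians with the letter term were -0.01 in XX females and 0.01 in XX males.

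The same genes also varied from animal to animal inside the groups. The median SD of the members around the fit was 0.325, close to 0.323 over all features. The median bead error within an array was 0.0571 in log2 units. That error was taken on raw signal that still held background, and the SD on corrected, normalized values. Their sizes are therefore not on the same scale, least of all for dim probes. Error from labelling and hybridisation was not measured. Cplx2 had the largest residual SD, 0.798, and Stx7 the smallest, 0.123. The first component of the residuals over all features held 45.2% of their variance, and XX female 7 and XXY male 5 lay at its low end. In those 2 animals Syn1 was at 10.53 and 10.35, while the other XX females spanned 12.08 to 12.93 and the next lowest XXY male was at 11.76. Vamp7 went the other way, at 11.13 and 11.14, the highest values of their groups.

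Taking Syn1 as the reference, 10 of the other 43 members (23.3%) had residuals that correlated with it at 0.8 or more over the 37 animals, and 3 (6.98%) at -0.8 or less. The same limits were met by 11.5% and 9.72% of all other features. The residuals all come from the same 37 arrays, normalized together. The high group held Nsf (Pearson r 0.94, Spearman rho 0.88), Syt11 (0.93, 0.88), Syt1 (0.92, 0.89), Vamp2 (0.91, 0.83), Sv2a (0.90, 0.86), Snap91, Syp (0.90, 0.82), Stxbp4, Cplx1 and Cplx2. Other vesicle genes were not in it: Syn2 had an r of 0.68, Stx1a 0.60, Syt5 -0.07, Vamp1 -0.11 and Sv2b -0.19. The opposite group held Vamp5 (-0.90, -0.83), Vamp7 (-0.86, -0.81) and Vamp3 (-0.83, -0.75), vesicle SNAREs of muscle and endothelium, of late endosomes and of recycling endosomes, and Vamp8 (-0.76), Stx3 (-0.70), Stx18 (-0.70) and Snap23 (-0.69) ran the same way. Without the 2 animals that stood apart, 6 members (14%) had an r of 0.8 or more and 1 (2.33%) an r of -0.8 or less, against 5.01% and 4.46% of all features. Vamp5 was detected in 14 of the 38 arrays, so its low values are near background.

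**Figure D4:**
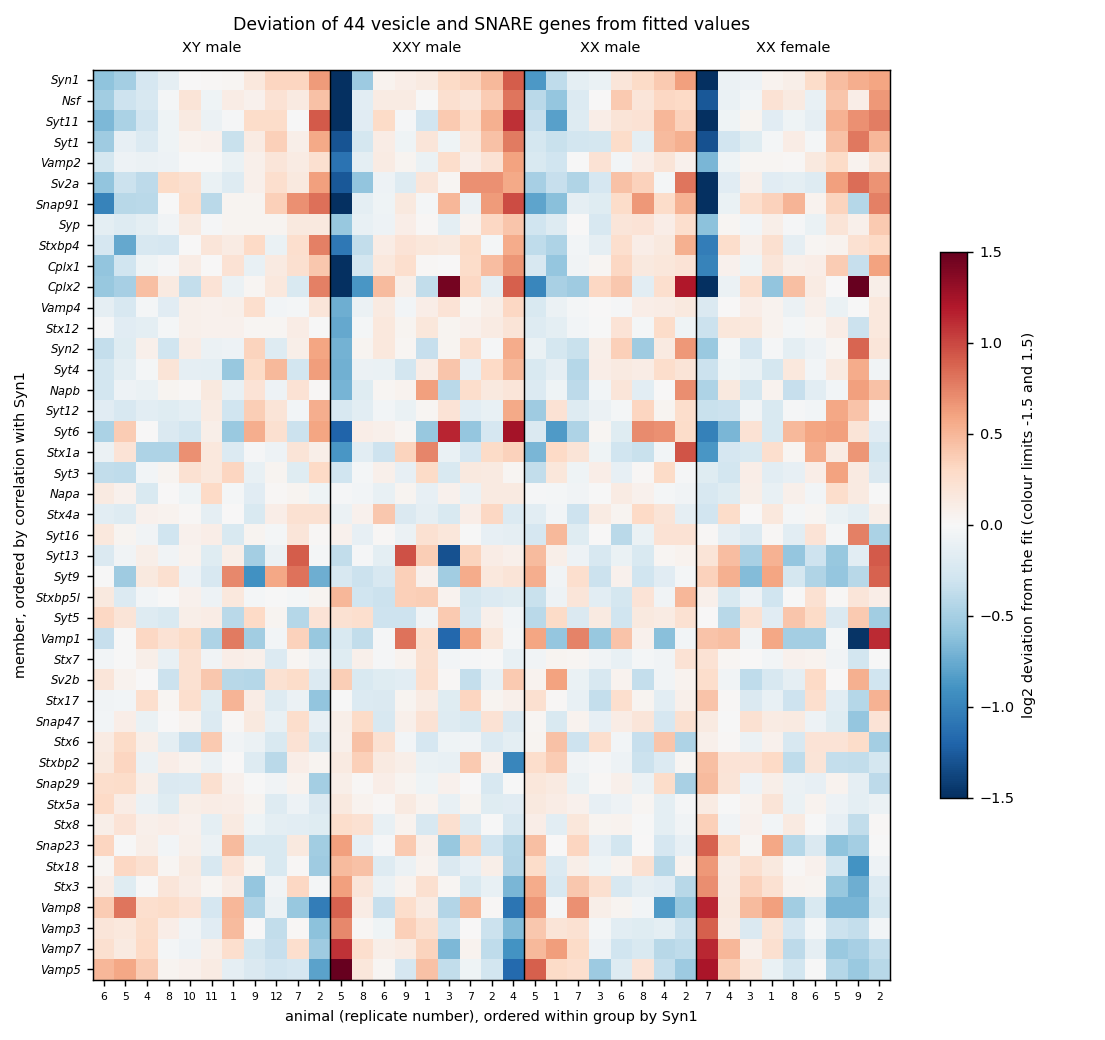
Deviation of each member (rows, ordered by Pearson correlation with Syn1) from its fitted value in each animal (columns, by group and then by Syn1), on a log2 scale from blue (lower) to red (higher). XXY male 5 and XX female 7, at the left edge of their groups, are low for the genes near the top and high for Vamp3, Vamp7, Vamp8 and Vamp5 at the bottom, and the remaining animals show the same gradient more weakly.

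**Figure D5:**
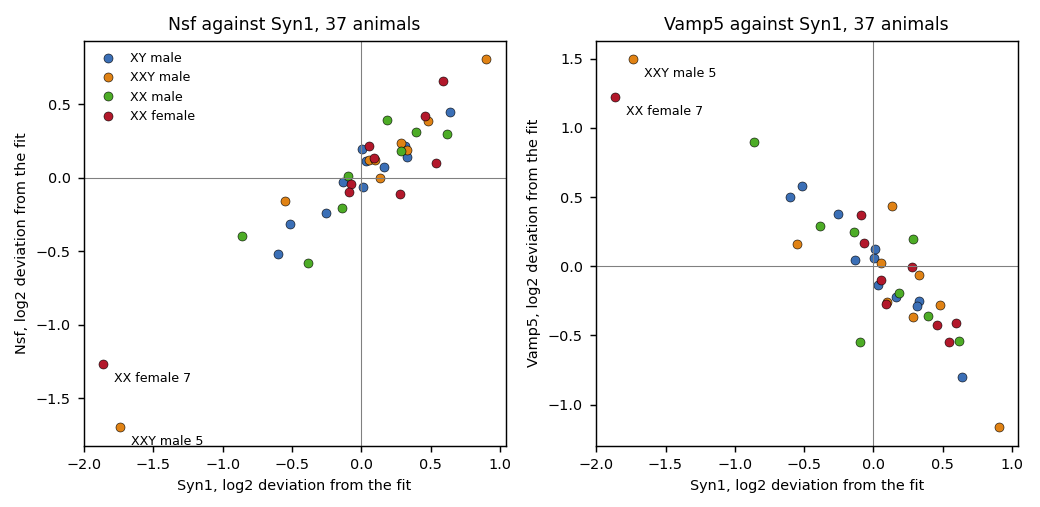
Log2 deviation from the fit of Nsf (left) and Vamp5 (right) against that of Syn1 in 37 animals, coloured by group. Nsf follows Syn1 (r 0.94) and Vamp5 opposes it (r -0.90) in animals of all 4 groups, and the 2 named animals lie farthest out.

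Features outside the family ran closer to Syn1 than any member did. The 5 most alike were Atp6v0a1 (r 0.97), a subunit of the proton pump that energises vesicle filling, Pacsin1 (0.97), an adaptor of vesicle endocytosis, Lrrc47 (0.97), Zmiz2 (0.96) and Camk2a (0.96), the main kinase of the postsynaptic density. Of 10 lists of cell type markers, 5 had an r with Syn1 of over 0.5 in size. The mean residual of 9 general neuron markers correlated with it at 0.85 (0.71 without the 2 animals that stood apart), that of 10 striatal projection neuron markers at 0.69 (0.57), of 8 astrocyte markers at 0.83 (0.63) and of the endothelial markers at 0.76 (0.69), whereas red blood cell markers ran at -0.64 (-0.66). The other lists lay nearer 0: cortical neurons at 0.23 (0.13), thalamic and septal neurons at 0.08 (0.06), oligodendrocytes at 0.04 (-0.04), choroid plexus at -0.15 (-0.21) and microglia at -0.17 (-0.26). General neuron markers averaged 10.02 in XX female 7 and 9.75 in XXY male 5, the lowest values of their groups. Astrocyte markers (9.74 and 9.51), endothelial markers (6.25 and 6.65) and striatal projection neuron markers (10.28 and 10.44) were also the lowest of their groups in these animals. Oligodendrocyte markers, at 11.95 and 11.63, were not, and red blood cell markers, at 9.72 and 10.18, lay at or near the highest. The part of these shifts in the members' values was not tested.

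Probes of the same gene varied alike in some genes and not in others. The second probe of Syn1 followed the first at an r of 0.98 over 37 animals, that of Sv2a at 0.99 and that of Vamp1 at 0.96. In contrast, the second probe of Stx6 reached 0.12, the other probes of Napa 0.35 and 0.28, and the other probes of Stx8, a gene of small spread, ran from -0.23 to 0.62. In 72 pairs of a gene with several probes and a comparison, 17 had probes of both signs, and 0 had both signs past 2 standard errors.

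The wider pathway, given by 5 lists of genes outside the family, also gave no call. Of 22 measured genes of the active zone and priming, 25 of vesicle recycling, 21 of vesicle filling, 14 other vesicle membrane proteins and 18 other SNARE pathway genes, 0 changed in any of the 6 comparisons. At an unadjusted p under 0.05 in XX females against XY males were 7 of the 100, against 5.26% of all features: Rims3 (-0.70) and Unc13b (-0.45), both priming factors, Bin1 (-0.39), Atp6v1a (0.48), Scamp5 (-0.40), Sec22b (0.22) and Vapa (0.49). In XXY against XY males there was 1, Vat1, a vesicle membrane protein first found in electric organ, at 0.32, against 1.3% of all features. The same level was met by 5 genes in XX against XY males (6.51% of all features), by 6 in XXY males against XX females (4.08%), by 5 in XXY against XX males (6.25%) and by 9 in XX males against XX females (7.61%). The letter term called 17 of these 100 genes, against 13.2% of all features. They were 11 higher and 6 lower in letter b, and over all features 662 were higher and 586 lower. Among them were Vat1 at 1.30 (adjusted p 0.000533) and Vapa, a membrane protein of the endoplasmic reticulum that binds VAMP, at -1.06 (adjusted p 0.000145).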

How the data were processed

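Total RNA from striatum was hybridised to Illumina bead arrays (25697 probes). Per the file headers, the authors deposited for each array a bead signal intensity that is not normalized, with the p-value of its detection, the standard error of that signal over beads, and the number of beads. A second deposited table holds the authors' log2 values, made with limma per the submitters' processing notes; how it was scaled and centred is not given in the sources used here. Its XX male columns correlated at 0.0624 to 0.0729 with their own arrays (other groups 0.987 to 1), so it served only as an alternative, without XX males. XY male 3 had detection p-values but its signal was not analysed here. In the 10 columns whose codes hold both letters, some bead numbers lay midway between integers. XY male 3 is among them, and each of the 9 with signal was used as 1 animal.

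Intensities were background-corrected, quantile-normalized and put on a log2 scale with neqc (offset 16, limma 3.58.1, R 4.3.3), keeping probes with detection p under 0.01 in at least 8 arrays (12362 probes). The brightest probe stood for a named gene. Each comparison was fitted with lmFit and eBayes over 4 groups, the labelled batch and the share of letter b (0, 0.5 or 1, the letter term), with Benjamini-Hochberg adjustment over 9476 features. Separate fits used only letter a or letter b animals. In a test on simulated data for XXY against XY males (9476 features), 50 of 100 planted differences of 0.5 and 93 of 100 of 1 (log2) were recovered. The simulated noise was independent between features and held no animals that stood apart. Many features were changed at once, which eases the adjusted threshold. The share that would be recovered in the real arrays is therefore not known from this test. Array values have no count depth; precision rests on the number of arrays and on signal over background, and differences of dim probes are understated.

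Members, gene lists and tests were chosen with earlier results of these data known. Genes are named by a rule: the core release machinery, X-linked members, and the 3 highest and 3 lowest moderated t in each of the 6 comparisons. Likeness was to be measured against Snap25, which is not analysed here, so Syn1 was used, chosen after its values were seen. Of 11458 named probes, 11454 matched RefSeq through Entrez identifiers. Alternatives concerned background, offset, normalization, filter, probes, covariates, batches, array weights, and the animals fitted.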

Additional observations from a re-analysis of the deposited data

Results flagged for a closer look

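Each member was tested for an animal far from the others of its group (Dixon's test at the 95% level) in XXY males, XX males and XX females, the groups of at most 10. Of 132 tests, 23 marked an animal, where chance alone marks about 1 in 20 of independent tests; the members share arrays and vary together, so these marks are not independent. XXY male 5 accounted for 9 and XX female 7 for 7, the same animals that stood apart over the whole array. All values are log2 normalized signal.

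The members marked low in XXY male 5 were Cplx1 at 12.46, Nsf at 11, Snap91 at 5.22, Syn1 at 10.35, Syt1 at 9.85, Syt11 at 11.47 and Vamp2 at 11.57. The endosomal and Golgi SNAREs Stx12, at 9.72, and Vamp4, at 11.36, were marked low as well. Other vesicle genes were not low in this animal. Sv2b, at 10.74, was the highest of the XXY males, and Syt5 was at 10.96 (group median 10.84). Of the 44 members, 17 lay above their fitted values there. This array had the fewest detected probes of those with signal, 10089, and the lowest array weight, 0.147. XX female 7 had 11244 detected probes and a weight of 0.185. The part of array quality in these values was not tested. In XX female 7 the genes marked low were Nsf at 11.6, Snap91 at 5.29, Stxbp4 at 6.05, Syn1 at 10.53, Syp at 12.75 and Vamp2 at 12.04, while Vamp5 was marked high at 6.78. XX female 9 was low for Snap47 (9.31), Stx18 (7.74) and Stx7 (11.6) and high for Syn2 (12.05). Single marks fell on Syt13 in XX male 5 (high, 7.1), Stx7 in XXY male 1 (high, 12.29) and Stxbp2 in XXY male 4 (low, 8.19).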

How the results depend on the processing

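Leaving out XX female 7, XXY male 5 or both was chosen after seeing the data, as was applying each alternative to the letter term. In XXY against XY males, XX females against XY males and XXY males against XX females, 0 members changed under any alternative. Without the letter term, 1 member was called in XXY against XX males (1.75% of all features) and 6 in XX males against XX females (26.9%). Fitting only XX males and XX females also gave 6 (26.2%). Array weights gave 13 in XX against XY males (25.9% of all features) and 12 in XX males against XX females (20.7%). They gave 16 within letter a (32.8%) and 3 within letter b (2.09%). The letter term called 10 members without the labelled batch (32.8% of all features), 18 with array weights (35.6%), 7 without both animals (19.3%), 8 without XXY male 5 (21.7%), 4 without XX female 7 (12.6%), and 0 within batch 1 or batch 2 alone, where fewer animals were fitted. For the other changes the cause was not tested.

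Same-numbered animals had residuals that correlated at -0.642 to 0.616 (48 pairs, 20 over 0.1, median -0.015). These residuals share a component with 45.2% of their variance, so the values cannot decide whether the numbers pair animals. The main fit did not pair them. With the replicate block 0 members changed in the 6 comparisons and the letter term called 1, Stxbp5l (2.35% of all features). Under the replicate block, signs turned for Stx18 (0.12) and Syt1 (-0.079) in XX males against XX females, Syn1 (0.035) and Vamp7 (-0.22) in XX females against XY males, and Vamp7 (0.11) in XX against XY males.

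Other reversed differences of named genes, each without an adjusted p under 0.05, follow. In batch 1 no male carried letter b alone, so its comparisons with XX females extend the letter term beyond the males' letters. Within batch 1 alone, against XY males, XX females had Stx6 -0.043, Syn1 0.93, Syp 0.36, Syt3 0.13 and Vamp7 -0.30, and XXY males had Syn1 0.32; XX males against XX females had Nsf -0.65, Syp -0.29 and Syt1 -0.34, and XXY males against XX females had Syp -0.17. Within batch 2 alone, XXY males had Syp -0.012 and Vamp7 0.059 against XY males and Syt13 0.11 against XX males. Without the letter term, XXY males against XX females had Napa -0.095, Snap23 0.086 and Syt16 0.037; XX against XY males had Snap47 0.14, Syn1 -0.0038 and Vamp7 0.042; XXY against XX males had Snap47 -0.12; XX females against XY males had Syn1 0.047. In XXY against XY males Syn1 reached 0.19 with array weights, 0.32 without animals with both letters, 0.16 without both animals that stood apart and 0.16 without XXY male 5, and stayed at -0.052 without XX female 7. In that comparison Syp was -0.0043 in the deposited log2 table, and without animals with both letters Syt9 was 0.054 and Vamp1 0.14. In XX males against XX females fitted alone, Nsf was -0.011.

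Genes near background (Vamp5, Stx3, Syt6, Syt3) are limited by their dim signal.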
